A study of Mus musculus with 8 samples.

Results

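Replication-dependent histone genes were taken as the rows of the gene table whose symbol starts with Hist1h, Hist2h, Hist3h or Hist4h. This rule found 70 of 39017 genes, made up of 6 H1, 20 H2A, 19 H2B, 12 H3 and 13 H4 genes. They lie in 4 clusters, named Hist1 (56 genes, chromosome 13), Hist2 (10 genes, chromosome 3), Hist3 (3 genes, chromosome 11) and Hist4 (1 gene, chromosome 6). The libraries came from induced germinal centre-like B cells (iGBs), which are splenic B cells of C57BL6/J mice grown on 40LB feeder cells that express CD40L and BAFF, with 1 ng/mL IL-4. Prmt5-null iGBs were Prmt5F/F Cγ1-cre and control iGBs were Cγ1-cre, so both genotypes carried the Cre, and each had 4 independent biological samples. Cγ1-cre is expressed after activation, so Prmt5 is deleted in culture and not in the resting cells that were plated. The libraries are named by genotype and the number in their labels, as PRMT5-10617, PRMT5-10618, PRMT5-10770 and PRMT5-10771 (Prmt5-null) and CTRL-10650, CTRL-10370, then CTRL-10596 and CTRL-10597 (control), and within each genotype values listed by library keep this order. On day 4 the B cells were separated from the feeders by elutriation, and total RNA was depleted of ribosomal RNA before sequencing.

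Replication-dependent histone genes supply the core histones (H2A, H2B, H3 and H4) and the linker histone H1 that package newly copied DNA, and their mRNAs accumulate in S phase. Most have no intron, and their mRNAs end in a conserved stem-loop in place of a poly(A) tail. The stem-loop is bound by Slbp, and cleavage after it needs the U7 snRNP, whose own proteins include Lsm10 and Lsm11. Because the libraries were made without poly(A) selection, mRNAs without a tail could be read.

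The stem-loop is what distinguishes this class of transcript, so its letters were looked for first. In the transcripts of the GENCODE annotation (GRCm38), 46 of the 70 members held the stem-loop pattern on the transcript strand, a run of 16 bases with GG at its start, CTT at bases 5 to 7, T at base 9, AG at bases 11 and 12 and CC at its end, against 201 of 55450 genes of the annotation (0.3625%). The variants below are shown because the stem of H4 genes differed from that of the other types, and a base of the loop varied as well. The match is in capitals, with up to 5 bases of flank in lower case.
Hist3h2a: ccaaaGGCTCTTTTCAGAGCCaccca
Hist1h3c: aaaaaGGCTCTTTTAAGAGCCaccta
Hist4h4: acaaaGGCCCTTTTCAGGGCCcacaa
Hist2h4: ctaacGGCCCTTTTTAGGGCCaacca
Hist1h4j: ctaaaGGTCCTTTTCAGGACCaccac
The stem-loop printed for Hist3h2a was found in 26 members, 10 of them H2A, 8 H2B, 5 H3 and 3 H1, and in no H4 gene. The variant of Hist1h3c was found in 6 members, the variant of Hist4h4 in 7, that of Hist2h4 in 2 and that of Hist1h4j in 2, and the last 3 variants were all in H4 genes. Hist1h4a, Hist1h3g and Hist2h2ac each held a variant of their own. Of the 24 members without a match, 10 are annotated only as far as the stop codon, so the window did not reach the place where the stem-loop would lie. In 18 of the 46 members with a match, the annotation ran more than 200 bases past it.

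Histone promoters are known for short elements near the start site, and the Hist3 genes are shown because they carried the largest called differences among the members. The 172 bases between Hist3h2bb-ps and Hist3h2a (GRCm38.p6, chr11:58954513-58954684, plus strand) lie upstream of both, and capitals mark CCAAT and the octamer ATTTGCAT on either strand.
Hist3h2a: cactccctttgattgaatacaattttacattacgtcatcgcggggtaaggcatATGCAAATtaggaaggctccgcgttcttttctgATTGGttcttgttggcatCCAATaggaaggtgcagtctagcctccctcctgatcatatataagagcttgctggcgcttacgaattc
The 250 bases before the RefSeq start of Hist3h2ba (chr11:58948661-58948910, plus strand) held 4 CCAAT and 2 TATAAA matches, again in capitals and counted on both strands.
Hist3h2ba: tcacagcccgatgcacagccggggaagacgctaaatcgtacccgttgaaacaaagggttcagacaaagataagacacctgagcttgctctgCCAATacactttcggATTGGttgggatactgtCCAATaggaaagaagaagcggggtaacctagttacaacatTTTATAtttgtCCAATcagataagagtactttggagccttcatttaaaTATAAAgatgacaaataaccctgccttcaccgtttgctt
RefSeq promoter windows, from 250 bases before to 50 bases after the start, were matched to 61 of the 70 members. CCAAT was present on either strand in 52 of the 61 windows (85.25%), against 37.41% of all 32851 windows. All matched H1, H2A, H2B and H3 genes held it, and 3 of 12 H4 genes did. TATAAA was present in 57.38% of the member windows and 13.62% of all windows. The octamer ATTTGCAT was present in 21.31% and 1.735%, all of the members being H2A or H2B genes. A match is a string of letters, and no binding was measured.

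Prmt5, the arginine methyltransferase that was deleted, was measured at 13087, 11084, 11657 and 11267 normalized counts in the control libraries and 1291, 1994, 1060.3 and 1808 in the Prmt5-null libraries. The groups did not overlap (7.65-fold lower in the mean, log2 fold change -2.98 ± 0.17 SE, limma adjusted p = 6.14e-06). Reads assigned to genes totalled 36731721 to 50366174 per library, and the histone genes took 1.39% to 2.41% of them. All libraries carried B cell transcripts, with the 10 B cell markers summing to 369833 to 420266 in the control libraries and 332361 to 395289 in the Prmt5-null libraries. Of the 8 T cell markers, Cd3e was at 0 in all 8 libraries. The sum of the T cell markers was 895 to 1056 in the control libraries and 439 to 628 in the Prmt5-null libraries. The 13 markers of fibroblasts, the cell type of the feeders, summed to 5212 to 8990.3 in the control libraries and 7819 to 13429 in the Prmt5-null libraries. Of those 13, 11 were tested and 3 were higher in Prmt5-null iGBs at an adjusted p below 0.05, against 6.51% of all genes tested. The part of feeder transcripts in the histone results was not tested.

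As a class, the histone genes did not separate the genotypes, whereas the 3 genes of the Hist3 cluster were all lower in Prmt5-null iGBs. Of the 70 members, 69 had a mean of at least 10 normalized counts and were tested. The testis-type gene Hist1h2aa had at most 4.31 normalized counts in any library and was not. At an adjusted p below 0.05 in limma and at least 1.5-fold, 3 members (4.35% of 69) were lower, where 2.99% of the 16250 genes tested were called in that direction, and 0 were higher, where 3.49% were. At an adjusted p below 0.05 of any size, 6 members (8.7%) were lower and 1 (1.45%) was higher, against 7.33% and 6.51% of all genes tested. With and without the size limit, the share of members lower was therefore near that of all genes. The 3 calls at 1.5-fold were the Hist3 genes, so they describe those genes and not the class. At an unadjusted p below 0.05, 10 members (14.5%) passed, against 29.3% of all genes tested in either direction. The median log2 fold change (Prmt5-null minus control) was -0.10 over the 69 members and 0.0024 over all genes tested.

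**Figure D1:**
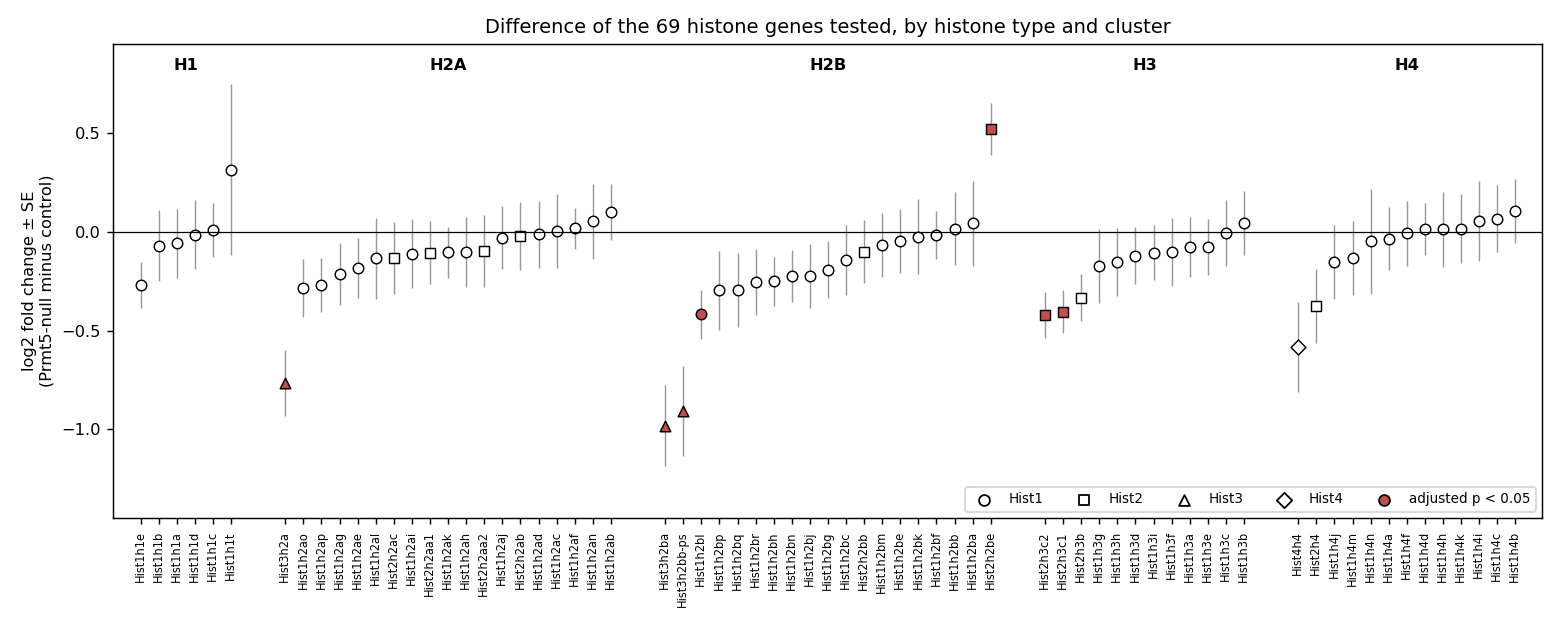
Log2 fold change (Prmt5-null minus control, y axis, with its SE) of each of the 69 histone genes tested, grouped by histone type and with a marker shape for each cluster. Filled points had an adjusted p below 0.05 in limma, and the 3 Hist3 genes lie lowest, at -0.76, -0.91 and -0.98.

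The summed normalized counts of all 70 members came to 942669.7, 994818, 768962 and 812941 in the control libraries and 867077, 606657, 1128129 and 772421 in the Prmt5-null libraries. PRMT5-10618 and PRMT5-10770 held the lowest and the highest of the 8 sums, and all 4 control sums lay between them. The ratio of the highest to the lowest sum was 1.86 among Prmt5-null and 1.29 among control libraries, while the group means differed by a ratio of 0.959 (Prmt5-null over control). In bulk RNA, fewer cells in S phase and less histone mRNA per cell cannot be told apart.

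**Figure D2:**
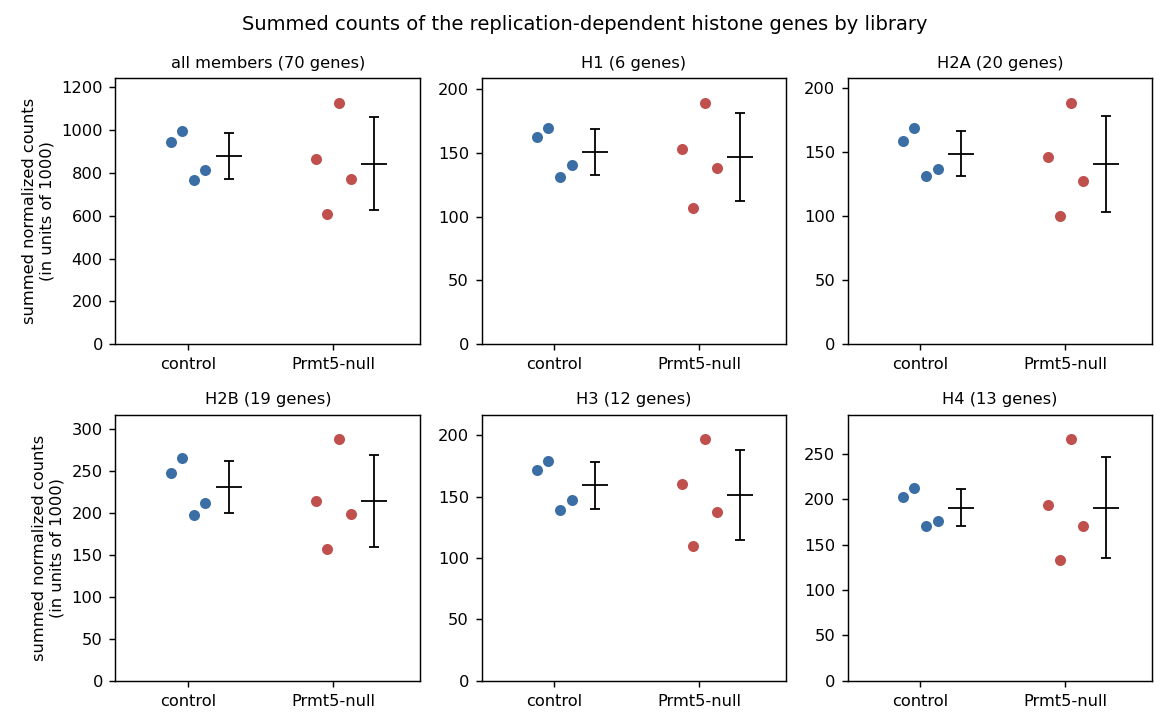
Summed normalized counts (in units of 1000, y axis) of all members and of each histone type in the 8 libraries. Points are libraries and bars are the mean ± SD of 4, and in every panel the lowest and the highest point are Prmt5-null libraries.

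The 5 histone types showed the same extremes. The H4 genes summed to 202453, 212689, 169985 and 176299.6 in the control libraries and 193418, 132723, 265785 and 170719.9 in the Prmt5-null libraries, a ratio of the means of 1.00. The H2B genes summed to 230705 ± 31074 in control and 214479 ± 54584 in Prmt5-null iGBs (mean ± SD, n = 4 each), a ratio of 0.93, the lowest of the 5 types. The ratios of H1, H2A and H3 were 0.973, 0.945 and 0.949. For every type the groups overlapped, and the control libraries lay inside the Prmt5-null range.

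Single genes repeated this order of the libraries. Library PRMT5-10618 held the lowest of the 8 values in 67 of 69 members, the exceptions being Hist2h2be and Hist1h1t. Library PRMT5-10770 held the highest of the 8 values in 49 members, and in these 49 genes all controls lay inside the Prmt5-null range. The SD of the log2 values was larger among Prmt5-null than among control libraries in 67 of 69 members. The 29 genes of DNA replication listed as S phase genes summed to 227979 normalized counts in library PRMT5-10618 and 266863 in library PRMT5-10770, the lowest and the highest of the 8 sums here too, and to 234723 to 258516 in the controls. The part of S phase entry in the spread of the histone counts was not tested. Without library PRMT5-10618 the median log2 fold change of the members was 0.052, and without library PRMT5-10770 it was -0.26, so its sign rested on library PRMT5-10618.

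**Figure D3:**
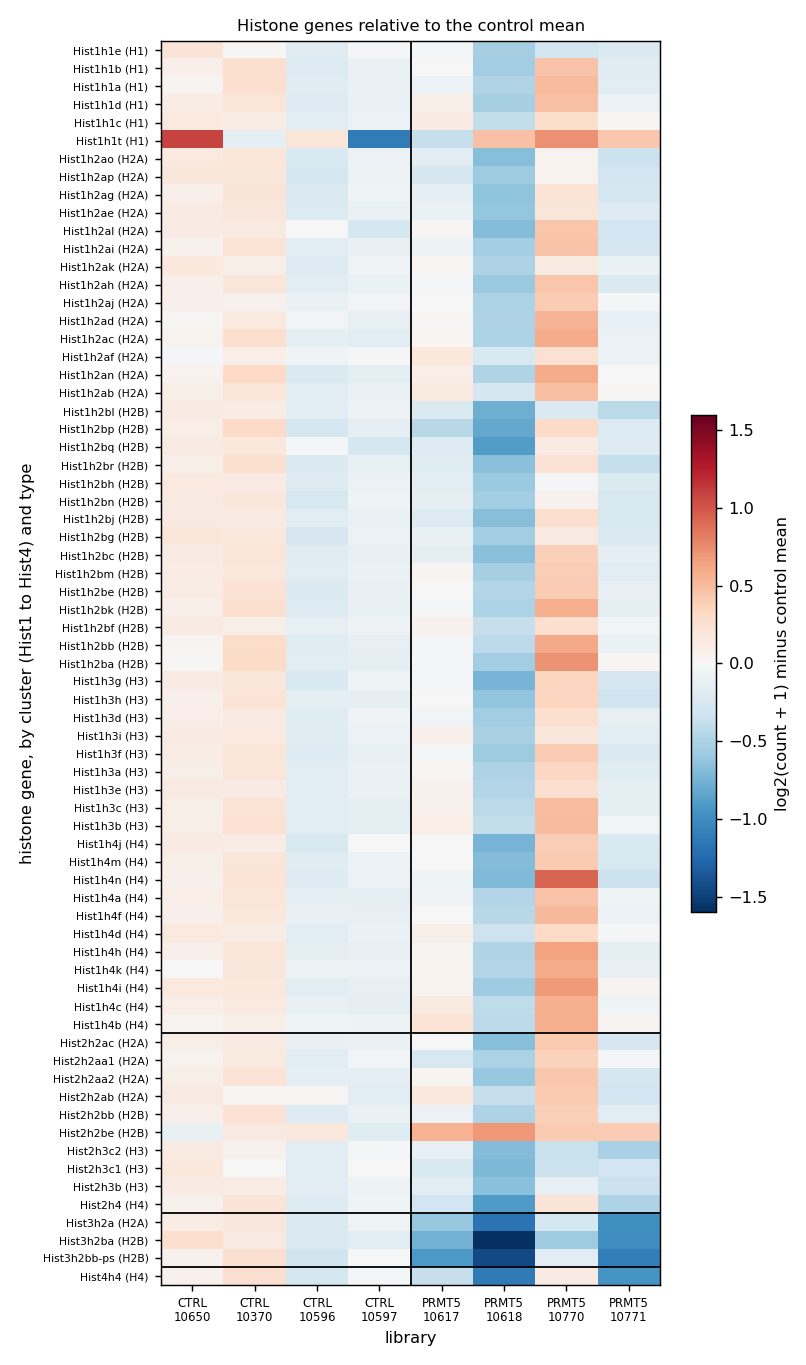
Log2(normalized count + 1) of the 69 histone genes tested minus the control mean of each gene, in the 4 control and 4 Prmt5-null libraries, with genes ordered by cluster and type. Library PRMT5-10618 is low and library PRMT5-10770 is high over most of the Hist1 and Hist2 genes, while the 3 Hist3 genes are low in all 4 Prmt5-null libraries.

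The 3 Hist3 genes were lower in Prmt5-null iGBs, by 1.66- to 1.93-fold in the mean. Hist3h2a (ENSMUSG00000078851, chr11:58954685-58956830, plus strand, GRCm38) encodes an H2A and was the most abundant of them. Hist3h2a had 7128, 7461, 5604 and 6247 normalized counts in the control libraries and 4321, 2888, 5388 and 3321 in the Prmt5-null libraries. The highest Prmt5-null library lay below the lowest control library, and the means were 6609.9 ± 844 against 3979.6 ± 1114 normalized counts (mean ± SD, n = 4 each). The gene passed the test (log2 fold change -0.76 ± 0.17 SE, limma adjusted p = 0.011), with an exact two-sided permutation p of 0.0286, the smallest that 4 against 4 libraries can give. Its first part shares an exon with Trim17 on the same strand, and Trim17 was at 96.4% to 98.9% of the Hist3h2a value in every library, so the values of these 2 genes cannot be told apart.

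Hist3h2ba (ENSMUSG00000056895, chr11:58948920-58949533, plus strand) encodes an H2B. It had 672, 617, 478 and 495 normalized counts in the control libraries and 331, 183, 379 and 280.3 in the Prmt5-null libraries. The groups did not overlap, and the means of 566 ± 94 against 293 ± 83.9 normalized counts (mean ± SD, n = 4 each) differed 1.93-fold (log2 fold change -0.98 ± 0.20 SE, limma adjusted p = 0.00828). Hist3h2bb-ps (ENSMUSG00000080712, chr11:58954048-58954512, minus strand) is annotated as a processed pseudogene of the H2B type and had 788, 898, 606 and 756 normalized counts in the control libraries and 399, 277, 673 and 351 in the Prmt5-null libraries. Here library PRMT5-10770 lay above the lowest control and the other 3 Prmt5-null libraries lay below all controls (log2 fold change -0.91 ± 0.23 SE, limma adjusted p = 0.0205). Its adjusted p was 0.0538 to 0.0638 when library PRMT5-10771, library CTRL-10650 or library CTRL-10370 was left out, and 0.063 without the limma trend, whereas Hist3h2a and Hist3h2ba stayed below 0.05 without any one library and without the trend. Of 100-base stretches of the annotated sequence, 95.1% were unique to Hist3h2ba, 93.2% to Hist3h2bb-ps and 70.2% to Hist3h2a.

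**Figure D4:**
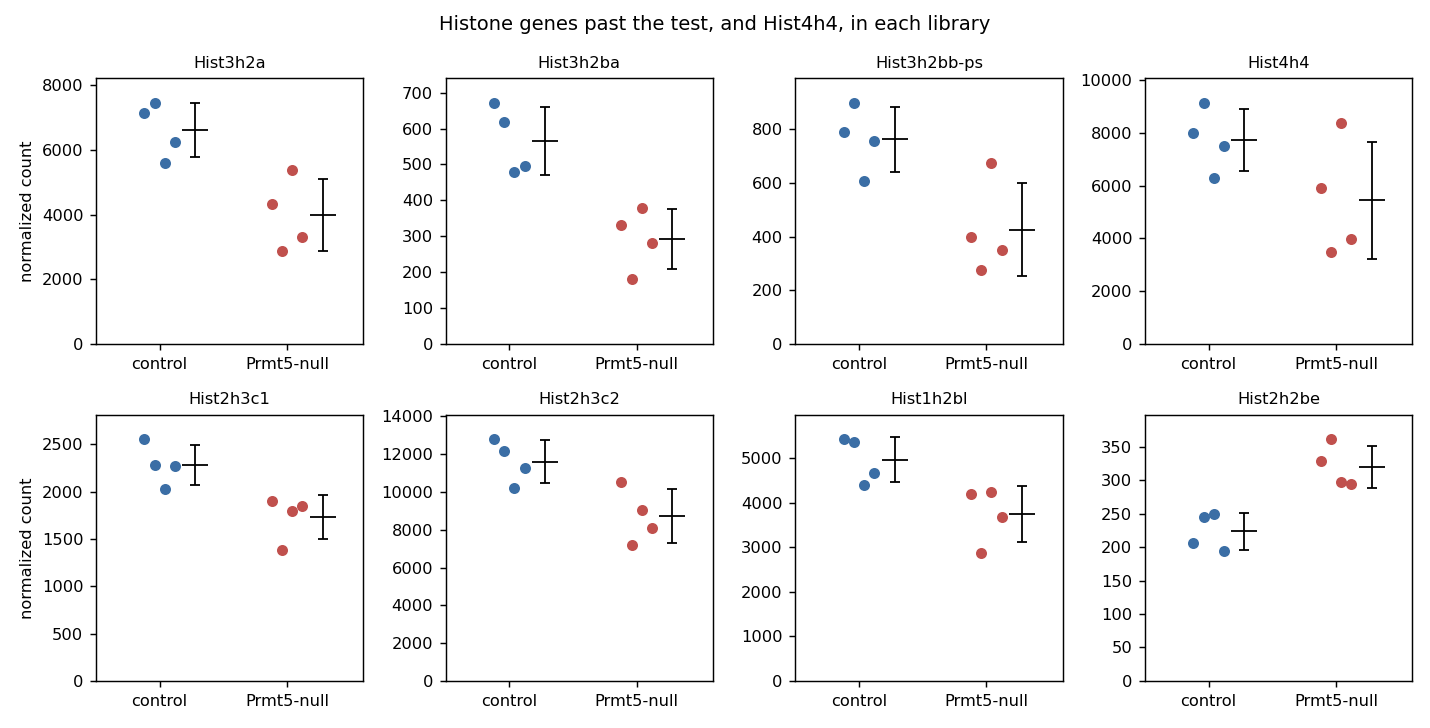
Normalized counts (y axis, from 0) in each library for the 7 histone genes with an adjusted p below 0.05 and for Hist4h4. Points are libraries and bars are the mean ± SD of 4, and for Hist3h2a and Hist3h2ba all Prmt5-null points lie below all control points.

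Set against the other histone mRNAs of the same library, the Hist3 genes varied little within a genotype. Their share of all histone counts was 0.911, 0.902, 0.87 and 0.922% in the control libraries and 0.583, 0.552, 0.571 and 0.512% in the Prmt5-null libraries. The mean share was 0.901 ± 0.0226% in control and 0.554 ± 0.0311% in Prmt5-null iGBs (mean ± SD, n = 4 each), 1.63-fold lower. Hist3h2a made up most of it, with 6609.9 of the 7937.6 Hist3 normalized counts in the control mean. Since its values cannot be told apart from those of Trim17, the share may hold Trim17 reads. Libraries PRMT5-10618 and PRMT5-10770, the extremes of the summed histone counts, had Prmt5-null shares between those of the other two. Without these 2 libraries, an alternative chosen after the values were seen, 4 members were called lower at 1.5-fold, namely the Hist3 genes and Hist4h4.

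**Figure D5:**
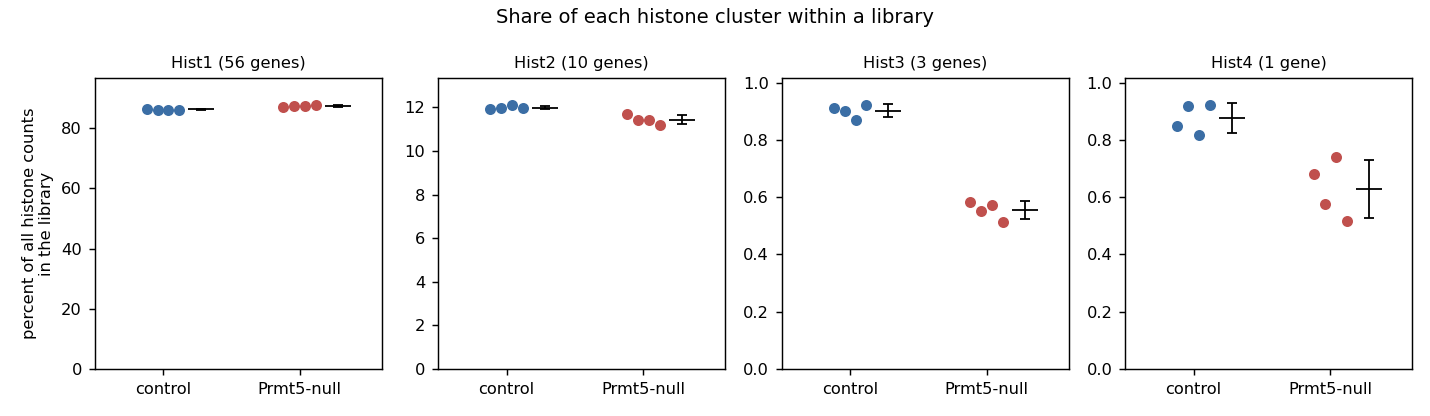
Share of all histone counts in a library (percent, y axis from 0) taken by each of the 4 clusters. Points are libraries and bars are the mean ± SD of 4, and the Hist3 shares are 0.87% to 0.922% in the control libraries and 0.512% to 0.583% in the Prmt5-null libraries. Most of the Hist3 share is Hist3h2a, whose values cannot be told apart from those of Trim17.

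The libraries also fell on opposite sides of principal component 2 of the other genes, with 2 of each genotype on each side. The study was done as 2 experiments, but the labels do not say which library belongs to which, and this split was used as a block in their place. On the positive side (PRMT5-10617 and PRMT5-10618, CTRL-10596 and CTRL-10597) the log2 difference was -0.74 for Hist3h2a, -0.98 for Hist3h2ba and -1.02 for Hist3h2bb-ps. On the negative side it was -0.79, -0.98 and -0.79. Hist3h2a and Hist3h2ba were thus lower by a like amount on both sides, and Hist3h2bb-ps by more on the positive side. The split was drawn from these same libraries, and whether it follows the experiments is not known. It is therefore no independent check.

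Hist4h4 (ENSMUSG00000096010, chr6:136801553-136804415, minus strand), the single Hist4 gene, encodes an H4. It had 8000.5, 9136, 6280.4 and 7496 normalized counts in the control libraries and 5915, 3485, 8358 and 3981 in the Prmt5-null libraries. The groups overlapped through library PRMT5-10770, and the difference did not pass the test (log2 fold change -0.58 ± 0.23 SE, limma adjusted p = 0.112). Its value rested on single libraries. Without library PRMT5-10770 the log2 fold change was -0.82 (adjusted p = 0.00708), without library PRMT5-10618 it was -0.40 (adjusted p = 0.207), and without any one of the other libraries the adjusted p stayed above 0.05. Its share of all histone counts was 0.849, 0.918, 0.817 and 0.922% in the control libraries and 0.682, 0.575, 0.741 and 0.515% in the Prmt5-null libraries, without overlap between the groups.

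In the Hist2 cluster, both called H3 genes were lower and an H2B gene was higher. Hist2h3c2 (chr3:96238108-96239127, minus strand) had 12784, 12171, 10183 and 11285 normalized counts in the control libraries and 10539.9, 7179, 9062 and 8086 in the Prmt5-null libraries. Library PRMT5-10617 lay above the lowest control, and the mean was 1.33-fold lower (log2 fold change -0.42 ± 0.12 SE, limma adjusted p = 0.0315). Hist2h3c1 (chr3:96246685-96248509, plus strand) had 2555, 2278, 2031 and 2273 normalized counts in the control libraries and 1904, 1385, 1798 and 1847 in the Prmt5-null libraries. Its groups did not overlap, with the mean 1.32-fold lower (log2 fold change -0.40 ± 0.11 SE, limma adjusted p = 0.0316). These genes encode H3 and are near copies of each other and of Hist2h3b, named here after its values were seen (log2 fold change -0.33, adjusted p = 0.084). No 100-base stretch of Hist2h3c1 was unique to it, so reads may be split between the copies in a way the table does not show. Each lost significance when any of 5 libraries was left out (PRMT5-10618, PRMT5-10771, CTRL-10650, CTRL-10370 or CTRL-10597), at adjusted p of 0.0594 to 0.0919 for Hist2h3c2 and 0.0504 to 0.0891 for Hist2h3c1. Without the limma trend these were 0.0842 and 0.0769, and without libraries PRMT5-10618 and PRMT5-10770 together 0.113 and 0.111.

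Hist2h2be (ENSMUSG00000068854, chr3:96221119-96223738, plus strand), which encodes an H2B, was the single member that was higher. It had 206, 245, 249.96 and 194 normalized counts in the control libraries and 329, 361, 298 and 294 in the Prmt5-null libraries. The 4 Prmt5-null values were the 4 highest, and the mean was at 1.43 times the control mean (log2 fold change 0.52 ± 0.13 SE, limma adjusted p = 0.0224). All of its 100-base stretches were unique, and no stem-loop match was found in its 2620 annotated bases. It was rank 68 of 70 by control level. Its adjusted p was 0.0526 to 0.0665 without library PRMT5-10617, PRMT5-10618, CTRL-10650 or CTRL-10597, and 0.0938 without libraries PRMT5-10618 and PRMT5-10770 together.

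The Hist1 cluster held 55 of the tested members and 1 call at an adjusted p below 0.05. Over all genes tested, 7.33% were lower and 6.51% were higher at that threshold. Hist1h2bl (ENSMUSG00000094338, chr13:21715763-21716143, minus strand), an H2B gene, had 5425, 5369, 4408 and 4677 normalized counts in the control libraries and 4201, 2877, 4235 and 3678 in the Prmt5-null libraries. The groups did not overlap, and the mean was 1.33-fold lower (log2 fold change -0.42 ± 0.12 SE, limma adjusted p = 0.0421). Leaving out any one library except PRMT5-10617 or PRMT5-10770 took its adjusted p to 0.0502 to 0.109, and it was 0.102 without the limma trend and 0.0724 without libraries PRMT5-10618 and PRMT5-10770. For this gene, 37.9% of its 100-base stretches were unique. The median log2 fold change was -0.12 over the 24 genes from Hist1h2bl to Hist1h2bj (chr13:21715763-22043676), 21 of which had a fitted value below 0. It was -0.014 over the 30 tested of the 31 genes from Hist1h4h to Hist1h2aa (chr13:23531050-23934851), 18 of which had one below 0. Over all tested Hist1 genes the median was -0.070, with values from -0.42 to 0.31. With each library left out, this median ran from -0.22 to 0.081, so its sign was not stable. Among all genes tested, 8066 of 16250 had a fitted value below 0. Near copies share reads, so the genes of a stretch are not independent, and the difference between the stretches was not tested.

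The most abundant genes of each type did not pass the test between the genotypes. Per kilobase of annotated exon, the highest control levels were 78822 normalized counts for the H4 gene Hist1h4m, 67629 for the H2A gene Hist2h2aa2 and 63434 for the H2B gene Hist1h2bb. The H1 gene Hist1h1a followed at 49148 and the H3 gene Hist1h3c at 44636. Annotated lengths differ in how far they run past the coding part, so this order rests on the annotation. Hist1h4m had 33656, 35983, 27523 and 29583 normalized counts in the control libraries and 31382, 19544, 42062 and 26368 in the Prmt5-null libraries, with overlapping groups (log2 fold change -0.13 ± 0.19 SE, limma adjusted p = 0.683). Hist2h2aa2 had 42087, 45769.6, 35218 and 35449.7 normalized counts in the control libraries and 40486, 25952, 53127 and 32827 in the Prmt5-null libraries, also overlapping (log2 fold change -0.098 ± 0.18 SE, limma adjusted p = 0.767). Its 100-base stretches were 11.7% unique, Hist2h2aa1 being a near copy. The symbols of this pair are exchanged between the deposited table and the annotation. Its exon length (586 bases) and this share therefore rest on the match by gene ID. By symbol they would be 528 bases and 0%. The copy matched by ID overlaps an exon of Gm20634, which was at 100.6% to 103.4% of the sum of Hist2h2aa1 and Hist2h3c1. That sum leaves out Hist2h2aa2, so the counts go better with the match by symbol. The level per kilobase and the unique share of Hist2h2aa2 are therefore uncertain. The linker gene Hist1h1a, whose sequence is unique throughout, had 37166, 43374, 31689 and 33446 normalized counts in the control libraries and 33895, 25968, 51262 and 32201 in the Prmt5-null libraries, and the controls lay inside the Prmt5-null range (log2 fold change -0.058 ± 0.18 SE, limma adjusted p = 0.862).

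The other genes chosen for their level overlapped between the groups as well. The log2 fold changes were 0.015 for Hist1h2bb, -0.0058 for Hist1h3c, 0.016 for Hist1h4k (H4), -0.10 for Hist1h2ak (H2A), -0.22 for Hist1h2bn (H2B), -0.079 for Hist1h3a (H3) and -0.070 for Hist1h1b (H1). Their adjusted p-values ran from 0.279 to 0.987 in limma. A difference of this size was smaller than the spread between Prmt5-null libraries, which does not show that the genotypes were equal.

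By type, 1 of 19 tested H2A genes, 3 of 19 H2B and 2 of 12 H3 were lower at an adjusted p below 0.05, as were 0 of 6 H1 and 0 of 13 H4. The 1 member that was higher was an H2B gene. Over all genes tested, 7.33% were lower and 6.51% were higher at that threshold. Counts this small do not set 1 type apart from another. At an unadjusted p below 0.05, 1 H1 and 1 H4 gene passed in limma and in edgeR, DESeq2 gave 1 and 0, and no tool gave a call after adjustment. The median log2 fold changes were -0.037 for H1, -0.10 for H2A, -0.19 for H2B, -0.11 for H3 and -0.0072 for H4. Without library PRMT5-10618 the medians of H1, H2A, H3 and H4 were above 0 (0.12, 0.052, 0.030 and 0.14), and that of H2B was -0.069. The groups did not overlap, with Prmt5-null below, in 4 members (5.8%, against 10.2% of all genes tested) and, with Prmt5-null above, in 1 (1.45%, against 9.67%). Scaled to 1000 histone counts of the same library, 12 members (17.4%) did not overlap with Prmt5-null below and 3 (4.35%) with Prmt5-null above, against 1.77% and 5.56% of all genes scaled in the same way. This scaling takes the spread that histone genes share out of the members and adds it to other genes, so the shares are not on an equal footing. The 12, listed after their values were seen, were the Hist3 genes, Hist4h4, Hist2h3b, Hist2h3c2, Hist2h4, Hist1h2bl, Hist1h2bj, Hist1h2ao, Hist1h2br and Hist1h2ag. Hist2h4 was at 4.44 to 4.7 per 1000 histone counts in control and 3.51 to 4.1 in Prmt5-null iGBs. Hist2h3c1 overlapped on this scale, at 2.29 to 2.8 in control and 1.59 to 2.39 in Prmt5-null iGBs.

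Of the 28 genes listed for histone mRNA synthesis and processing, 4 were lower and 1 was higher at an adjusted p below 0.05 in limma. Over all genes tested, 7.33% were lower and 6.51% were higher at that threshold. The median log2 fold change of the list was -0.049. Rnu7, the U7 RNA that pairs with histone pre-mRNA, had 44.2, 56.2, 58.2 and 40.3 normalized counts in the control libraries and 20.4, 28.6, 29.2 and 20.6 in the Prmt5-null libraries. The groups did not overlap, and the log2 fold change was -0.98 (limma adjusted p = 0.0206), on few reads. Whether RNA extraction and library preparation kept so short an RNA was not tested, so these counts may not measure mature U7 RNA. Its adjusted p was 0.053 to 0.0669 without library PRMT5-10617, PRMT5-10771, CTRL-10370 or CTRL-10596, and 0.0551 with no filter on low values. Zfp473, a zinc finger protein that works with the U7 snRNP, had 403, 343, 321 and 243 normalized counts in the control libraries and 174, 200.1, 179 and 221 in the Prmt5-null libraries, lower in every Prmt5-null library (log2 fold change -0.74 ± 0.16 SE, limma adjusted p = 0.0108).

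Ccne1, the cyclin E that acts with Cdk2 on Npat, had 1514, 1377, 1539 and 1608 normalized counts in the control libraries and 1239.7, 1001.5, 888 and 932 in the Prmt5-null libraries and was 1.49-fold lower (log2 fold change -0.58 ± 0.11 SE, limma adjusted p = 0.00463). Cpsf3, the nuclease that cuts histone pre-mRNA, was 1.19-fold lower (log2 fold change -0.25 ± 0.067 SE, limma adjusted p = 0.0306), with no overlap. Its adjusted p was 0.0595 to 0.0799 when any one library except PRMT5-10770 or CTRL-10597 was left out, 0.0553 with no filter and 0.0616 without the limma trend. Ncbp2, a subunit of the cap-binding complex, was at 1.34 times the control mean (log2 fold change 0.42 ± 0.081 SE, limma adjusted p = 0.00575).

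Slbp, Lsm10, Lsm11, Npat and Casp8ap2 did not pass the test. The stem-loop binding protein Slbp had 7426, 8883, 7805 and 8955 normalized counts in the control libraries and 7148, 7440.1, 7956 and 7217 in the Prmt5-null libraries, with overlapping groups (log2 fold change -0.15 ± 0.081 SE, limma adjusted p = 0.249). Lsm11 was higher in all 4 Prmt5-null libraries and missed the threshold (log2 fold change 0.28 ± 0.090 SE, limma adjusted p = 0.0579), and it passed under quantile normalization (adjusted p = 0.0466) and in DESeq2 (0.025). Lsm10 had a log2 fold change of -0.20 (adjusted p = 0.434). Npat and Casp8ap2, which act at histone locus bodies, had log2 fold changes of 0.022 (adjusted p = 0.93) and 0.087 (adjusted p = 0.525).

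Variant histones are also made outside S phase. Of 12 listed, 10 were tested, and 3 were lower and 1 was higher at an adjusted p below 0.05. These counts stand against 7.33% lower and 6.51% higher among all genes tested. H2afj, an H2A variant, had 1957, 2160.2, 2114 and 1929 normalized counts in the control libraries and 3344, 3145, 4086 and 3406 in the Prmt5-null libraries and was at 1.71 times the control mean (log2 fold change 0.77 ± 0.090 SE, limma adjusted p = 0.000298). H2afx, the H2A variant phosphorylated at DNA breaks, had 20629, 20915, 16748 and 18217 normalized counts in the control libraries and 14723, 10767, 15898 and 12456 in the Prmt5-null libraries and was 1.42-fold lower (log2 fold change -0.52 ± 0.12 SE, limma adjusted p = 0.0154). The linker histone gene H1f0 was 1.44-fold lower (log2 fold change -0.52 ± 0.11 SE, limma adjusted p = 0.00699), and Cenpa, the H3 variant of centromeres, was 1.2-fold lower (log2 fold change -0.27 ± 0.075 SE, limma adjusted p = 0.0354). The groups did not overlap in any of these 4 genes. Cenpa lost significance when any one library except PRMT5-10770 was left out (0.056 to 0.111), and H2afx without library PRMT5-10771 (0.0531). Without the limma trend the adjusted p was 0.0712 for Cenpa and 0.0526 for H2afx, and with no filter it was 0.0543 for Cenpa.

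Of 22 histone chaperone genes, 2 were lower and 1 was higher, against 7.33% and 6.51% of all genes tested. Asf1b, a carrier of H3 and H4 in replicating cells, had 3511, 3511, 3296 and 3293 normalized counts in the control libraries and 2707, 2361, 2563 and 2383 in the Prmt5-null libraries and was 1.36-fold lower (log2 fold change -0.44 ± 0.073 SE, limma adjusted p = 0.00226). Tonsl and Mms22l, which form a complex at replication forks, differed in opposite directions, Tonsl at 1.41 times the control mean (log2 fold change 0.48 ± 0.11 SE, limma adjusted p = 0.0139) and Mms22l 1.19-fold lower (log2 fold change -0.25 ± 0.073 SE, limma adjusted p = 0.044). The adjusted p of Mms22l was 0.0651 to 0.125 when any one library except PRMT5-10618 or CTRL-10650 was left out, 0.0698 with no filter, 0.0809 without the limma trend and 0.0642 with scaling by total reads. The median log2 fold change over the 22 genes was 0.022.

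Of 29 S phase genes, 4 were lower and 0 were higher at an adjusted p below 0.05 in limma. Among all genes tested, 7.33% were lower and 6.51% were higher. At an unadjusted p below 0.05, 2 S phase genes were higher in limma and in edgeR, and DESeq2 called 2 higher after adjustment. Tk1, the thymidine kinase, had 2105, 2758, 2345 and 2011 normalized counts in the control libraries and 1643, 1240.4, 1717 and 1523 in the Prmt5-null libraries and was 1.51-fold lower (log2 fold change -0.59 ± 0.12 SE, limma adjusted p = 0.00799). Pold1, the catalytic subunit of DNA polymerase delta, was 1.3-fold lower (log2 fold change -0.37 ± 0.079 SE, limma adjusted p = 0.00897), Mcm7, a subunit of the replicative helicase, 1.2-fold (log2 fold change -0.26 ± 0.078 SE, limma adjusted p = 0.0451) and Cdc6, a loader of that helicase, 1.18-fold (log2 fold change -0.24 ± 0.067 SE, limma adjusted p = 0.0325). Leaving out any one library except PRMT5-10770 took the adjusted p of Mcm7 to 0.0732 to 0.138, and that of Cdc6 was 0.0665 to 0.0898 without library PRMT5-10617, PRMT5-10771, CTRL-10370, CTRL-10596 or CTRL-10597. With no filter these were 0.0778 and 0.0557, without the limma trend 0.0901 and 0.0598, and in edgeR Mcm7 was at 0.0506. The median over the list was -0.050 on the log2 scale.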

How the data were processed

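Total RNA of 4 Prmt5-null and 4 control samples of day 4 iGBs was ribosomal RNA-depleted, made into stranded libraries and sequenced as paired ends. Per the labels, the authors' processing notes name Trimmomatic 0.32, STAR 2.3.0e, featureCounts 1.4.4 and DESeq2 1.14.1, with the GRCm38 and mm10 builds, and the strand setting and the handling of multi-mapped or overlapping reads were not given in the sources used here. The deposited table holds signal values, which are read counts per gene that the authors divided by DESeq2 size factors. Dividing by the value of 1 read gave whole reads within 0.01 for 100% of the values in every library.

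From these values, log2(normalized count + 1) was tested with limma 3.58.1 (trend, R 4.3.3) over the 16250 genes with a mean of at least 10, with Benjamini-Hochberg adjustment over all of them. Fold changes are on that scale, which understates changes of low genes. Calls are at an adjusted p below 0.05, with and without a 1.5-fold limit. edgeR 4.0.16 and DESeq2 1.42.0 on the recovered reads, other scalings, filters and pseudocounts, a block on principal component 2 and leaving out each library were alternatives. The limma fit was also run on simulated counts, drawn gene by gene with a common dispersion and so without a spread that genes share. edgeR, DESeq2 and the other steps were not run on simulated counts. Sums and medians over members were given without a test. The limma p-values set a difference against the spread between the 4 samples of a genotype. That spread is pooled over both genotypes and moderated across all genes tested. A like spread in both genotypes is thus assumed, while the SD was larger among Prmt5-null libraries in 67 of 69 members.

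Members were matched to GENCODE vM21 (GRCm38), 63 by gene ID and 7 by symbol. The ID listed as Hist2h2bb belongs to an overlapping noncoding RNA there, so its sequence features are uncertain. Promoter windows came from RefSeq (GRCm38.p6). Genes named were every member with an adjusted p below 0.05, the 2 members of each type with the highest control level per length, all Hist3 and Hist4 genes, at most 5 genes per list with the largest changes among those at an adjusted p below 0.05, Slbp, Npat, Casp8ap2, Lsm10, Lsm11 and Prmt5. The members and lists were chosen with earlier results of these data known. Splicing tables were looked up for members and not used otherwise, and the authors' columns of comparisons in them were not used.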

Additional observations from a re-analysis of the deposited data

Results flagged for a closer look

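In the control group of Ncbp2, library CTRL-10596 stood apart. The gene had 1865, 1893, 2155 and 1894 normalized counts in the control libraries and 2681, 2407, 2824 and 2523 in the Prmt5-null libraries, and the gap from library CTRL-10596 to the next control was 0.903 of the range of the 4 control libraries, above the 95% critical value of Dixon's test for 4 values. It was 1 of 100 groups of 4 libraries looked at in this way, where chance alone marks about 5 in 100. Every Prmt5-null library lay above library CTRL-10596.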

How the results depend on the processing

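The counts of calls depended on single libraries. The counts of members lower (6) and higher (1) at an adjusted p below 0.05, and of members lower (3) and higher (0) at 1.5-fold, stayed within 1.5 times of these under pseudocounts of 0.5 and 5, no filter, a filter above 50, scaling by total reads, quantile and TMM normalization, edgeR, DESeq2 and the principal component 2 block. Without the limma trend 2 members were lower. At a threshold of 0.01, 1 was lower at any size, 1 at 1.5-fold and 0 higher. Without libraries PRMT5-10618 and PRMT5-10770, a choice made after seeing the data, 0 were higher. Leaving out 1 library at a time, the members lower numbered 2 to 9 (9 without PRMT5-10770; 3 without PRMT5-10618 or CTRL-10597; 2 without PRMT5-10771, CTRL-10650 or CTRL-10370), those higher 0 to 1 (0 without PRMT5-10617, PRMT5-10618, CTRL-10650 or CTRL-10597), and those lower at 1.5-fold 2 to 4. The causes were not tested.

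The genes at an adjusted p below 0.05 numbered, of the S phase list (4), 2 with no filter, 2 without trend, 8 in DESeq2, 7 with the block and 2 at 0.01. Of the chaperones (3) they numbered 5 in DESeq2, 5 with the block and 1 at 0.01. Of histone mRNA synthesis and processing (5) they numbered 3 with no filter and 2 at 0.01, and of the variant histones (4), 2 without trend and 2 at 0.01. With each library left out, these counts ran from 2 to 4 (S phase), 3 to 5 (synthesis and processing) and 2 to 5 (variants), and the chaperone count ran from 2 to 3.

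Sign changes were found in genes that passed no test. Hist1h3c was at 0.028 on the log2 scale in edgeR and 0.027 in DESeq2, Hist1h2bb at -0.034 under quantile normalization and -0.062 without libraries PRMT5-10618 and PRMT5-10770, and Hist1h4k at -0.030 without those libraries. With each library left out, log2 fold changes ran from -0.27 to 0.070 (Hist2h2aa2), -0.17 to 0.18 (Hist1h4k), -0.19 to 0.024 (Hist1h2ak), -0.25 to 0.092 (Hist1h1b), -0.32 to 0.051 (Hist1h4m), -0.17 to 0.14 (Hist1h3c), -0.18 to 0.16 (Hist1h2bb), -0.22 to 0.058 (Hist1h3a), -0.25 to 0.081 (Hist1h1a) and -0.041 to 0.13 (Npat). Medians by type and cluster and ratios of summed counts moved by less than the SD between libraries pooled over both genotypes, but most turned sign. With each library left out, medians ran from -0.21 to 0.12 (H1), -0.27 to 0.052 (H2A), -0.26 to 0.030 (H3), -0.20 to 0.14 (H4), -0.22 to 0.081 (Hist1) and -0.29 to 0.030 (Hist2), and log2 ratios of summed counts from -0.19 to 0.086 (H1), -0.26 to 0.050 (H2A), -0.28 to 0.019 (H2B), -0.23 to 0.050 (H3), -0.20 to 0.14 (H4), -0.21 to 0.087 (Hist1) and -0.30 to 0.0028 (Hist2). Hist3 and Hist4 values stayed below 0 in each alternative run, as did the H2B median.

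No paired analysis was possible because the library numbers in the labels differ between the genotypes. With 4 libraries a group the counting error of abundant members is small and the spread between libraries sets the precision, while Hist1h1t and Rnu7 rest on under 100 counts. Near copies of histone genes share sequence, so a count of 1 copy is uncertain.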

Other observations

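Reads in overlapping histone loci appeared in more than 1 gene. Gm20634, a transcript annotated across Hist2h3c1, was at 100.6% to 103.4% of the sum of Hist2h2aa1 and Hist2h3c1 in the 8 libraries. Its log2 fold change was -0.28 (limma adjusted p = 0.148). The near copies Hist2h2aa2 and Hist2h2aa1 differed 19- to 27.5-fold in level, and the symbols of this pair are exchanged between the deposited table and the GENCODE annotation, so no position is given for them.

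The deposited splicing tables listed 1918 events, and 0 of them lay in a member. Of the 70 members, 3 are annotated as pseudogenes, 11 have an exon that overlaps an exon of another gene, 7 consist wholly of unique 100-base stretches and 26 are unique over less than 50% of theirs. Over the 17 tested members that were unique over at least 90%, the median log2 fold change was -0.066, with 2 lower and 1 higher at an adjusted p below 0.05. Over the 26 under 50%, it was -0.11, with 3 lower and 0 higher. Among all genes tested, 7.33% were lower and 6.51% were higher at that threshold, so counts this small show no difference by uniqueness.

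The T cell markers summed to 895 to 1056 in the control libraries and 439 to 628 in the Prmt5-null libraries, with Lck, which B cells can also express, making up most of the sum (660.2, 746, 780.3 and 734 normalized counts in the control libraries and 462, 418, 352 and 304 in the Prmt5-null libraries). Its log2 fold change was -0.94 (limma adjusted p = 0.000852). The rest of the sum came from other markers of the T cell list. The 7 myeloid markers in the table summed to 55.7 to 152 in the control libraries and 59.3 to 135 in the Prmt5-null libraries.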
